A study of Drosophila melanogaster with 2 samples.

Results

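The promoter sites described here are the weak end of the Hr96 map in adult female flies: 1070 peaks in promoters that rank immediately below the final peak list. Chromatin immunoprecipitation followed by sequencing (ChIP-seq) was carried out on whole adult females of the transgenic Hr96-GFP line of Drosophila melanogaster, which stably express Hr96 with a C-terminal green fluorescent protein (eGFP in the sample descriptions). An antibody to GFP was used, although 1 label field names Hr96 as the antibody, and the age of the flies is given as unknown. The 2 samples are biological replicates numbered 1 and 3 of 1 group, both carry the fusion, and the peaks of both were called against 1 shared control file, so signal that does not depend on Hr96 cannot be told apart from Hr96 binding. Whole animals mix all tissues, so a weak peak in many cells and a strong peak in few cells cannot be told apart either.

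Members were chosen by their place in a ranking and by position. The 30000 regions of the pooled dm6 list, called by the authors from both replicates together, were ordered by the signal value the authors' peak caller gave each of them. The ranks from the first one after the final list to rank 7000, called the near-cut range below, hold 3393 peaks. Of these, 1243 have their summit within 500 bp of the transcription start site (TSS) of a protein-coding gene, and 173 of the 1243 were dropped because a summit of the final list lay within 500 bp. That final list was made by the authors with the irreproducible discovery rate (IDR), a procedure that compares the ranks of peaks between replicates. The IDR peaks are exactly the strongest peaks of the pooled list, with no gap and no other peak among them, so in the pooled list the edge of the IDR set is a cut by rank. The label of the group, promoter peaks just below that cut, fits the data in this sense: the signal was 59.80 at the first rank of the range and 59.86 at the last IDR rank. At the lower end the signal was 37.988 at rank 7000 and 37.987 at the next rank. The member farthest from a TSS lies 499 bp away and the nearest peak left out 504 bp away, and the member nearest to an IDR summit lies 510 bp from it and the farthest dropped peak 490 bp. Because pooled signal chose the members, their signals and the replicate signals that make them up are given as descriptions, and no test was made. Peaks are positions in the same 2 libraries and not replicates, so intervals on shares are exact Clopper-Pearson 95% intervals that cover counting error over peaks only.

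Hr96, or DHR96, belongs to the nuclear receptors, transcription factors with a zinc finger DNA-binding domain and a ligand-binding domain. It is known in flies for roles in triacylglycerol and cholesterol metabolism in the gut and in the response to foreign compounds. Many nuclear receptors recognise the core AGGTCA, singly or as repeats. Fly promoters also carry short motifs of general promoter factors: the DRE (TATCGATA), bound by DREF; the motif GGTCACAC, bound by M1BP; and, at insulators, the motif of CTCF, searched as AGNNGGCGC. ChIP-seq of tagged factors in whole animals gives peaks both at sites with the factor's own motif and at open promoters without it.

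The following stretches show 2 members for each of these 4 motifs, for which a run without untranslated-region bases could be read. They were taken from members with a high pooled signal, but some members with the same motif and a higher signal are not shown. Most members have none of these 4 motifs in their summit window, and these are shown as examples from the minority with one of the 4. All come from the RefSeq copy of the Release 6 (dm6) assembly and are written in the direction of the gene, with the motif, on either strand, in capitals. For the DRE they are the promoters of Rab35, a small GTPase of membrane traffic (chrX:20159979-20160098, minus strand, motif 64 bp from the summit), and of mei-38, which shares its peak with Rab27 (chrX:1476981-1477062, plus strand, motif 5 bp from the summit).
Rab35: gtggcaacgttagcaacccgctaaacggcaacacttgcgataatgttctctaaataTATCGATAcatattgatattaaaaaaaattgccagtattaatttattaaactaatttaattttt
mei-38: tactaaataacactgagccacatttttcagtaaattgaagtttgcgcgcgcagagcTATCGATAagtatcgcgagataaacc

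For the M1BP motif they are the promoters of N, which encodes the Notch receptor (chrX:3134794-3134869, plus strand, motif 10 bp from the summit), and of Dmtn (chr3R:6405896-6406012, minus strand, motif 34 bp from the summit). The run at Dmtn also holds the promoter E-box CAGCTG, which overlaps the end of the M1BP match.
N: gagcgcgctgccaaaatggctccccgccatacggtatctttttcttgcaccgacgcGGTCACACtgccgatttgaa
Dmtn: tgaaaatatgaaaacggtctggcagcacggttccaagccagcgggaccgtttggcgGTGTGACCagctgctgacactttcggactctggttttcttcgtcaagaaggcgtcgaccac

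For the CTCF motif they are the promoters of CG33177 (chrX:15081191-15081311, plus strand, motif 93 bp from the summit) and of CG10038 (chr3R:12350645-12350711, minus strand, motif 1 bp from the summit). The run at CG10038 also holds, in lower case, a DRE and a nuclear receptor core.
CG33177: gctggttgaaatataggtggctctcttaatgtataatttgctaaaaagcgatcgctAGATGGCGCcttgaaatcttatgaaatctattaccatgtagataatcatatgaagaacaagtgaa
CG10038: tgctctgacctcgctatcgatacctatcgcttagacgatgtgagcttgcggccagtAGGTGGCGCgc

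For the nuclear receptor core, AGGTCA or its reverse complement TGACCT, they are the promoters of CG17065 (chrX:20257224-20257341, minus strand, core 42 bp from the summit) and of sfl, a heparan sulfate sulfotransferase (chr3L:6522834-6522951, plus strand, core 52 bp from the summit). The run at sfl also holds a forkhead motif, GTAAACA, and a GAGA element, GAGAG on the other strand.
CG17065: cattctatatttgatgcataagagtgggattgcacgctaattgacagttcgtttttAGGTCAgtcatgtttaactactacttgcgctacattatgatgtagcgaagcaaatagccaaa
sfl: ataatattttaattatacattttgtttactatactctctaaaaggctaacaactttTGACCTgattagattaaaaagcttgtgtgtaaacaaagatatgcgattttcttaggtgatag

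The near-cut promoter peaks continue a trend in which promoters become less common as peaks get weaker, with no step at the edge of the IDR list. Of the 3393 peaks of the near-cut range, 36.6% lay at promoters (95% interval 35.0 to 38.3), against 61.5% (59.9 to 63.1) of the IDR peaks. The share was 19.6% (18.2 to 20.9) in the 3393 ranks after rank 7000 and 10.6% in the last 15000 ranks of the list, next to 11.5% of the genome's bases. In bins of 500 ranks the share was 50.8% at ranks 3001 to 3500, 48.2% at 3501 to 4000, 40.6% at 5001 to 5500 and 26.6% at 6501 to 7000. The promoter share of the near-cut range was thus above that of the genome's bases in each of its bins, and it was lower in the lower part of the range than in the upper part. The 2039 other peaks of the range lay away from promoters and from IDR summits, and 111 lay away from promoters but near an IDR summit.

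**Figure D1:**
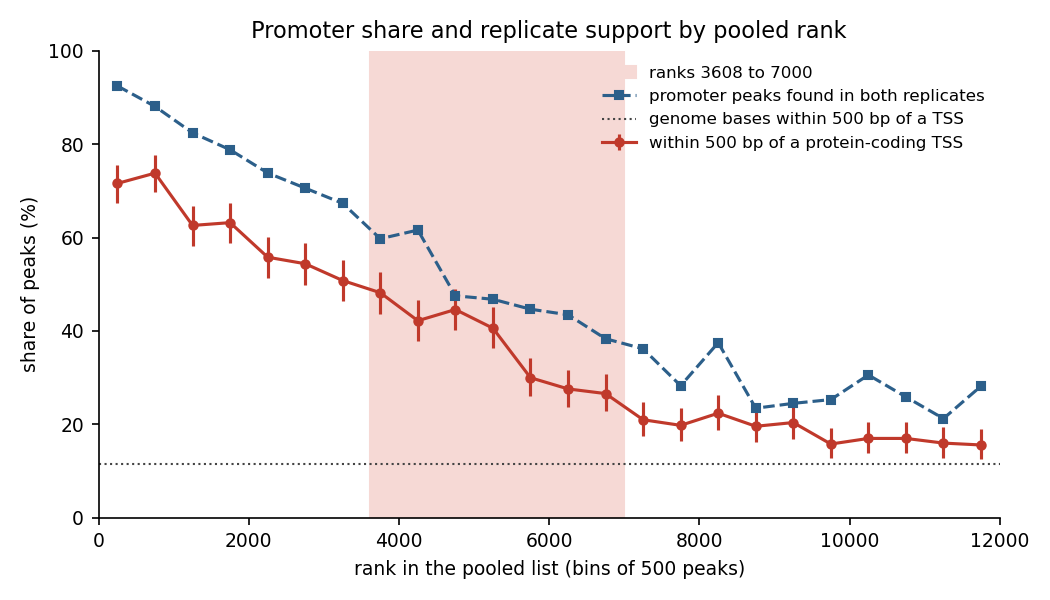
Share of pooled peaks within 500 bp of a protein-coding TSS (circles, exact 95% intervals) and share of those promoter peaks matched in both replicates' lists (squares), in bins of 500 ranks of the pooled list. The promoter share is 71.6% in the first bin, 48.2% at ranks 3501 to 4000, 26.6% at ranks 6501 to 7000 and 15.6% at ranks 11501 to 12000; the dotted line marks the 11.5% of genome bases that lie as close to a TSS.

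The members are weak peaks by the authors' own statistic. Their pooled signal ranged from 38.0 to 59.8 with a median of 46.5, against a range of 59.9 to 2692 and a median of 111.4 in IDR promoter peaks. Their q-values, taken back from the deposited −log10 values, ran from 0.134 to 0.564. None of the 1070 members had a q-value at or below 0.05, against 1793 of 2217 (80.9%) IDR promoter peaks and 437 of 861 (50.8%) of the weaker IDR promoter peaks, those after rank 2000. Each peak of the pooled list is 416 bp wide, so width does not separate the classes. How many reads stand behind each peak is unknown.

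Replicate support was partial. A member counted as found in a replicate where a summit of that replicate's own list of 30000 regions lay within 100 bp. Of the 1070 members, 547 (51.1%, 95% interval 48.1 to 54.2) were found in both lists, 299 (27.9%) in replicate 1 only, 196 (18.3%) in replicate 3 only, and 28 (2.62%) in neither. IDR promoter peaks were found in both lists in 1767 of 2217 cases (79.7%), those after rank 2000 in 604 of 861 (70.2%), and promoter peaks of the 3393 ranks after rank 7000, called the next range, in 177 of 603 (29.4%). Near-cut peaks away from promoters were found in both in 1194 of 2039 cases (58.6%, 56.4 to 60.7), a share above that of the near-cut promoter peaks, with a lower median signal of 43.4. For scale, 4.50% of the genome's bases lie within 100 bp of a summit of replicate 1, and 4.50% within 100 bp of a summit of replicate 3. The distance sets the size of these shares: at 50 bp, 33.6% of members were found in both and 111 in neither, and at 250 bp, 71.8% in both and 1 in neither. The order of the classes was the same at each distance, with 59.5% of IDR promoter peaks found in both at 50 bp and 91.7% at 250 bp, and 17.7% and 49.6% of the promoter peaks of the next range.

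High rank in both replicates was uncommon among the members. A rank within the first places of a replicate's list, as many as the IDR list has peaks, is called an IDR-size rank. No member had one in both replicates, whereas 1208 of 2217 (54.5%) IDR promoter peaks had. Members lie past the IDR-size ranks of the pooled list, to which both replicates contribute, so the selection largely sets this 0. In the same way, 0 of the 603 promoter peaks of the next range had both ranks within 7000. Among the members, 173 (16.2%) had one in replicate 1 and 138 (12.9%) in replicate 3, so 311 (29.1%) had it in exactly 1 of the 2. With the limit at rank 7000, 123 members (11.5%) were inside it in both replicates and 866 (80.9%) in at least 1. Near-cut peaks away from promoters had lower shares by these rank limits, though more of them were found in both lists. Of these peaks, 17.5% had an IDR-size rank in exactly 1 replicate and 74.8% were within rank 7000 in at least 1. Both ranks were within 7000 in 8.88% (7.68 to 10.2, against 9.65 to 13.6 in members). Members found in replicate 1 had a median rank there of 5170.5, with a range of 2004 to 29910. Members found in replicate 3 had a median rank there of 6264, with a range of 1146 to 29574. Of the 547 found in both, 307 (56.1%) ranked better in replicate 1, 172 (31.4%) had ranks within 1.5 times of each other, and 100 (18.3%) had ranks that differed by over 4 times. Across these 547 members the 2 ranks gave a Spearman correlation of −0.38, against 0.61 across 1767 IDR promoter peaks. Both replicates feed the pooled signal, and the members were selected from a narrow range of it. The negative sign cannot be told apart from an effect of this selection, which was not tested.

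**Figure D2:**
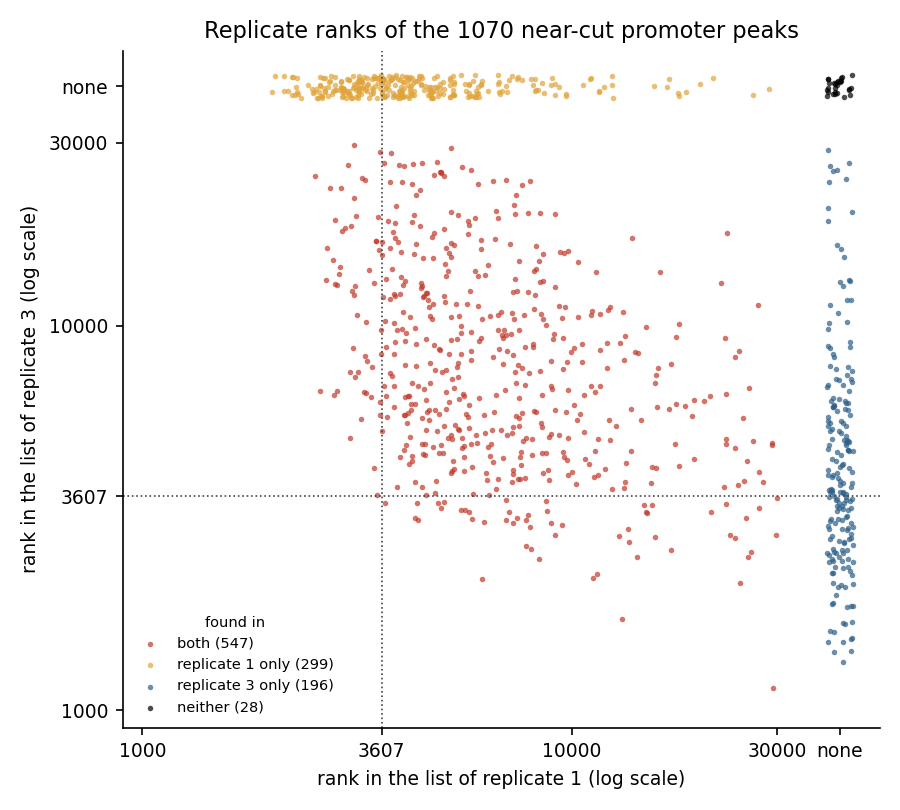
Rank of each of the 1070 members in the list of replicate 1 (horizontal, log scale) and of replicate 3 (vertical, log scale), coloured by the lists it was found in, with members missing from a list drawn at "none". Dotted lines mark the number of IDR peaks: no member lies below it on both axes, 547 have a rank on both, 299 only in replicate 1, 196 only in replicate 3 and 28 in neither. The lack of members below it on both axes is largely set by their selection on pooled signal.

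The strongest members show how the 2 replicates combine at this level. The first, at gem, a transcription factor of the CP2 family (chr2R:10125611-10126026, the first rank of the range, signal 59.8), had rank 2734 and signal 34.0 in replicate 3 and no summit within 100 bp in replicate 1. The peak at mTerf5, a mitochondrial transcription termination factor whose promoter is shared with Non3, had pooled rank 3611, rank 2845 in replicate 1 and rank 6765 in replicate 3. The peak at unc80, a component of a neuronal sodium leak channel complex, had pooled rank 3615 and ranks of 4300 in replicate 1 and 3159 in replicate 3. Thus 1 of these was matched in the list of 1 replicate and the other 2 in both lists, and a missing match does not show that a replicate had no signal there. Of the remaining members among the 10 strongest, Rab35 (3979 in replicate 1, 4570 in replicate 3), the globin gene glob1 (5599 and 4554, in the same order) and Teh4, an auxiliary subunit of a sodium channel (3287 and 6722), had moderate ranks in both. AANATL7 (2773 and 14842) and CG14561 (3064 and 18180) ranked far better in replicate 1. Septin4 (25606 and 2509) ranked far better in replicate 3, and CG12926 was found in replicate 3 only (rank 3699).

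The members in which the worse of the 2 ranks was best were at Pino (3525 in replicate 1, 3625 in replicate 3), pbl (3667 and 3466), Dyro (3921 and 3799), Ptp4E (3455 and 4279), unc80 and CG7720 (4306 and 3926). pbl is needed for cytokinesis, and Ptp4E encodes a receptor tyrosine phosphatase. All 6 lie past the IDR-size ranks in at least 1 replicate. At the other extreme, the mitotic kinase gene polo had rank 2529 in replicate 1 and 24612 in replicate 3. spir, an actin nucleator of the oocyte, had 3103 and 29574, Dmtn had 3007 and 26265, and flr, an actin-binding protein, had 2736 and 22866. In the opposite direction, Mef2, a transcription factor of muscle and fat body, had rank 29399 (signal 14.7) in replicate 1 and rank 1146 (signal 56.5) in replicate 3, the best replicate 3 rank of any member. CG45061 had 29893 and 2851. Members with unequal ranks and members with balanced ranks thus lie side by side in pooled rank, as polo (3773) and Pino (3832) do. At the lower end of the range, CG43307 (pooled rank 6995) had ranks of 10310 in replicate 1 and 14683 in replicate 3, and Nep3, a neprilysin-type peptidase gene (6992), was found in neither.

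A smaller share of the near-cut promoter peaks than of the IDR promoter peaks lay where TSSs face both ways, with intervals that do not overlap. TSSs on both strands lay within 500 bp of 129 members (12.1%, 95% interval 10.2 to 14.2), against 674 IDR promoter peaks (30.4%, 28.5 to 32.4). That share was 21.8% in IDR promoter peaks after rank 2000 and 6.97% in promoter peaks of the next range, so it was lower in each weaker class. A single gene lay within 500 bp of 921 members (86.1%), while 141 had 2 genes and 8 had 3 or more. The summit lay upstream of the nearest TSS in 62.3% of members (59.4 to 65.2) and downstream in 37.3%, against 74.4% (72.6 to 76.2) and 25.3% in IDR promoter peaks. The median distance from summit to TSS was 113 bp in members and 99 bp in IDR promoter peaks. A summit within 250 bp of a TSS was found in 76.5% of members and 83.5% of IDR promoter peaks. Member summits fell in a 5′ untranslated region in 313 cases (29.3%), outside genes in 396 (37.0%), in an intron in 257 (24.0%) and in coding sequence in 67 (6.26%), against 23 (1.04%) IDR promoter summits in coding sequence. The nearest IDR summit was a median of 8296 bp away, 235 members (22.0%) had one within 2000 bp and 493 (46.1%) had none within 10000 bp.

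**Figure D3:**
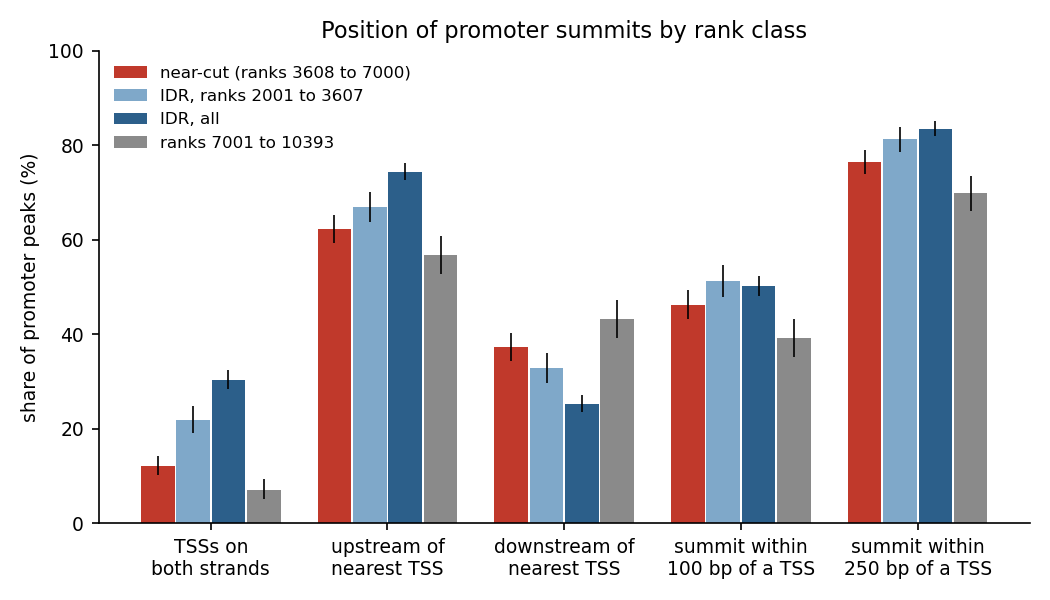
Share of promoter peaks with TSSs on both strands, with the summit upstream or downstream of the nearest TSS, and with the summit within 100 or 250 bp of a TSS, for the near-cut members (n = 1070), IDR promoter peaks after rank 2000 (n = 861), all IDR promoter peaks (n = 2217) and promoter peaks of the next range (n = 603); bars start at 0 and error lines are exact 95% intervals. Promoters with TSSs on both strands make up 12.1% of members and 30.4% of IDR promoter peaks.

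Base composition and chromosome differed modestly between the classes. Windows reaching 100 bp to each side of the member summits had a median G+C content of 43.8% (SD 8.75), against 39.3% (SD 8.07) in IDR promoter peaks and 42.3% (SD 7.79) in windows of the same length on the 19253 protein-coding TSSs. It was 41.8% in IDR promoter peaks after rank 2000 and 45.3% in the next range, higher in each weaker class. The X chromosome held 149 members (13.9%, 11.9 to 16.1), 14.7% of IDR promoter peaks, 7.46% (5.50 to 9.86) of promoter peaks of the next range, and 15.7% of protein-coding genes. The share of members was 19.6% on arm 2L, 21.3% on 2R, 21.7% on 3L and 23.5% on 3R. Chromosome 4, with 80 genes, held none of the 1070, which allows a share of up to 0.344%.

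No motif searched was in the majority of members. The DRE and the M1BP motif had lower shares under member summits than at TSS windows in general. Their shares were higher in members than in near-cut peaks away from promoters. For each motif the window from 100 bp before to 100 bp after the summit was searched on both strands, and the background is the same search in windows centred on all 19253 protein-coding TSSs. The 2 kinds of window differ in position: 46.3% of member summits lay within 100 bp of a TSS, so most member windows do not hold the TSS. The part of this difference in the shares was not tested. The DRE was found in 46 members (4.30%, 3.16 to 5.69), 6.72% (5.71 to 7.84) of IDR promoter peaks and 6.45% (6.10 to 6.80) of TSS windows. The M1BP motif was found in 34 members (3.18%, 2.21 to 4.41), 4.38% of IDR promoter peaks and 5.68% (5.36 to 6.02) of TSS windows. In near-cut peaks away from promoters the DRE was at 0.69% (0.38 to 1.15) and the M1BP motif at 0.39% (0.17 to 0.77). In the same order of motifs, the weaker IDR promoter peaks were at 6.27% and 5.34%. Promoter peaks of the next range were at 3.15% and 2.49%. For both motifs the interval of the members lies below that of the TSS windows, but not under every setting. With a TSS window of 250 bp the shares were 5.13% (3.72 to 6.87) for the DRE and 4.03% (2.79 to 5.61) for the M1BP motif. With the rule applied to replicate 1 alone they were 4.79% (3.36 to 6.60) for the DRE and 4.24% (2.90 to 5.97) for the M1BP motif, and these 4 intervals overlap those of the TSS windows. So does that of the DRE in the upper part of the rank range, 4.75% (3.23 to 6.72). The DRE or the M1BP motif was found in 72 members, and both in 8. The CTCF motif was found in 32 members (2.99%, 2.05 to 4.20), 3.34% of IDR promoter peaks and 1.92% (1.73 to 2.12) of TSS windows, with intervals of members and TSS windows that overlap. At least 1 of these 3 motifs was found in 102 members.

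Of the letters that nuclear receptors read, the common core was about as frequent under member summits as at TSSs, and a variant core had a higher share. The core AGGTCA was found in 38 members (3.55%, 2.53 to 4.84), 3.25% of IDR promoter peaks and 3.26% of TSS windows. The variant AGTGCA, known as a core read by the related receptor DAF-12 of Caenorhabditis elegans, was found in 156 members (14.6%, 12.5 to 16.8), 13.7% of IDR promoter peaks, 17.9% of the near-cut peaks away from promoters and 11.1% (10.6 to 11.5) of TSS windows. For this variant the interval of the members lies above that of the TSS windows, but it overlaps it with the rule applied to replicate 3 alone (13.0%, 10.9 to 15.3) and in the upper part of the rank range (11.9%, 9.46 to 14.7). The share was no higher at promoters than away from them. GAGA elements (GAGAG) were found in 343 members (32.1%, 29.3 to 34.9), 28.7% of IDR promoter peaks, 25.6% of near-cut peaks away from promoters and 25% (24.4 to 25.6) of TSS windows. The intervals overlap with the rule applied to replicate 1 alone (28.5%, 25.2 to 31.9) and in the lower part of the rank range (28.5%, 24.3 to 32.9). The TATA box (TATAAA) was found in 23.8% of members, 29.7% of IDR promoter peaks and 26.9% of TSS windows. The initiator letters TCAGT were found in 38.9%, 33.6% and 43.4% of the same 3 sets. For the initiator the interval of the members (35.9 to 41.9) lies below that of the TSS windows (42.7 to 44.1). It overlaps with a TSS window of 250 bp (41.1%, 37.8 to 44.6) and with replicate 3 alone (40.3%, 37.1 to 43.5). In the same order of sets, the promoter E-box CAGCTG was found in 12.2%, 14.3% and 13.4%, the forkhead motif GTAAACA in 6.36%, 7.13% and 6.12%, the GATA motif AGATAAG in 3.36%, 2.75% and 2.66%, and the Zelda motif CAGGTAG in 1.59%, 0.95% and 1.08%. Where a motif was present, its median distance from the summit was 44 bp for the DRE in members and 35.5 bp in IDR promoter peaks, and 53 bp and 36.5 bp for the CTCF motif, as at Rab35 (64 bp) and CG10038 (1 bp) in the sequences printed above. The CTCF motif lay within 25 bp of the summit in 8 of 32 members with it, against 33 of 74 IDR promoter peaks. A match is a string of letters and no record of binding, and the part of G+C content, which differs between the sets, in these shares was not tested. Nor was the part of the distance between member summits and TSSs, on which the background windows are centred.

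**Figure D4:**
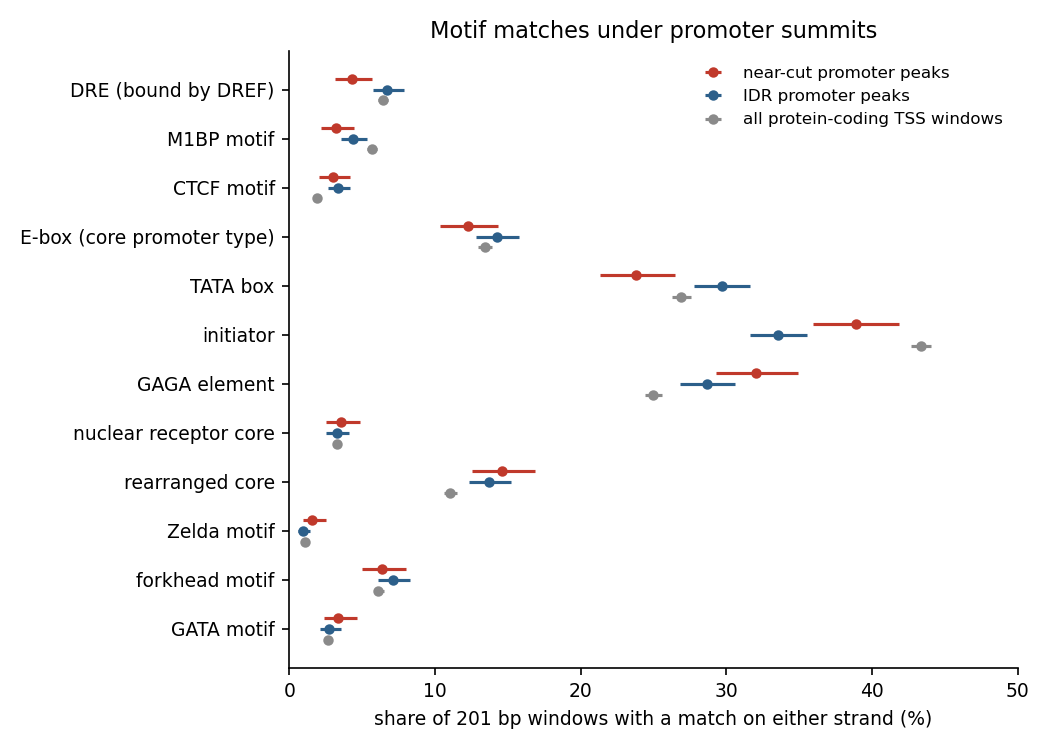
Share of windows, 100 bp to each side of the centre, holding each of 12 motifs on either strand (horizontal axis, percent) for the near-cut members (n = 1070, top of each triplet), IDR promoter peaks (n = 2217) and all protein-coding TSS windows (n = 19253), with exact 95% intervals. The members' intervals lie below the TSS windows for the DRE (4.30% against 6.45%), the M1BP motif (3.18% against 5.68%) and the initiator (38.9% against 43.4%). With a TSS window of 250 bp these 3 intervals overlap those of the TSS windows, as for the DRE (5.13%, 3.72 to 6.87). The members' intervals lie above the TSS windows for GAGA elements (32.1% against 25%) and AGTGCA, the rearranged core (14.6% against 11.1%). With 1 replicate alone they overlap for GAGA elements (replicate 1) and for AGTGCA (replicate 3).

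The members fall at 1121 of 13945 protein-coding genes (8.04%), the genes with a member summit within 500 bp of a TSS, while IDR summits fall at 2526 genes (18.1%) and either kind at 3477 (24.9%). Of the 1121 genes, 951 have no IDR summit within 500 bp of any TSS. The other 170 have one there too, over 500 bp from the member summit and at the same or another TSS. These 170 are 15.2% of the genes with a member and 6.73% of those with an IDR summit. Genes with both had a mean of 3.71 TSSs, against 1.68 in genes with a member and no IDR summit, 1.87 in genes with an IDR summit and 1.27 in genes with neither, and a gene with more TSSs has more places for a peak. Counting only the nearest gene, the 1070 members have 983 distinct genes. Acsl, Moe, Pfrx, Src64B, Treh and smg are each the nearest gene of 3 members, the most of any gene, and they were picked out after their counts were seen. Genes known only by a CG number were the nearest gene of 334 members (31.2%), against 25.9% of IDR promoter peaks and 43.7% of all protein-coding genes.

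Genes of the pathways Hr96 is known for had near-cut peaks, though fewer than had IDR peaks, as was also the case over all protein-coding genes (1121 against 2526). The share of sterol genes (8%) was near that of all genes (8.04%), and the interval of the xenobiotic and antioxidant genes includes it. Of 31 genes of triacylglycerol and fatty acid metabolism, 7 (22.6%, 9.59 to 41.1) had a member, against 8.04% of all genes, and 19 had an IDR summit; 4 of the 7 had no IDR summit, among 12 such genes. The interval lies above 8.04%, but the share was 9.68% with a TSS window of 250 bp, and 12.9% with the rule applied to replicate 1 alone. All genes were at 6.14% and 5.67% under these settings. The strongest member at Acsl, a long-chain acyl-CoA synthetase, had pooled rank 3987 with rank 4255 in replicate 1 and none in replicate 3. Lip4, a lipase, had pooled rank 4252 with ranks of 8549 in replicate 1 and 4147 in replicate 3. Pect, an enzyme of phosphatidylethanolamine synthesis, had pooled rank 4877 and was found in replicate 1 only (3758). The lipase gene Lip3 (pooled rank 6183) was found in replicate 3 only (7279). The remaining 3 genes, the fatty acid desaturase Desat1 (5776), the acyltransferase Agpat3 (6237) and the fatty acid transport protein Fatp3 (6962), also have an IDR summit at another place. Desat1 had ranks of 27209 in replicate 1 and 3351 in replicate 3, Agpat3 was found in replicate 3 only (2588), and Fatp3 had 7402 and 5830. Of the 7 genes, 3 thus had a summit in both replicates.

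Of 25 genes of sterol transport and handling, 2 (8%) had a member, against a background of 8.04%, and 4 had an IDR summit. The share was 24% with a TSS window of 1000 bp, 4% with members kept over 1000 bp from an IDR summit, and 16% with the rule applied to replicate 3 alone. In the same order of settings, all genes were at 10.5%, 7.30% and 7.23%. Mtp, the lipid transfer protein of lipoprotein assembly, had pooled rank 4767 and was found in replicate 1 only, at rank 4016. SCAP, the escort protein of the membrane-bound factor SREBP, had pooled rank 6164 (signal 40.8) and was found in replicate 3 only, at rank 2279. Neither gene has an IDR summit, and neither peak was matched in both replicates.

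Of 21 nuclear receptor genes, 4 (19.0%, 5.45 to 41.9) had a member and 6 an IDR summit, and the interval includes 8.04%. With the rule applied to replicate 1 alone the share was 9.52% (5.67% of all genes), and with replicate 3 alone it was 4.76% (7.23% of all genes). Eip75B, a heme-binding receptor induced by ecdysone, had a member at chr3L:17961492-17961907 with pooled rank 3638 and ranks of 11419 in replicate 1 and 2268 in replicate 3. ftz-f1, a receptor of the timing of metamorphosis and oogenesis, had a member at chr3L:18801348-18801763 with pooled rank 4101, rank 2038 (signal 60.1) in replicate 1 and none in replicate 3. Hnf4, a receptor of lipid and glucose metabolism, had a member at chr2L:8692510-8692925 with pooled rank 4820, rank 3195 in replicate 1 and none in replicate 3. svp, the COUP-TF receptor of flies, had a member at chr3R:12258927-12259342 with pooled rank 6043 and ranks of 7221 in replicate 1 and 9510 in replicate 3. Eip75B and Hnf4 also have an IDR summit at another place within 500 bp of a TSS, while ftz-f1 and svp have none.

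Of 120 xenobiotic and antioxidant genes, 15 (12.5%, 7.17 to 19.8) had a member, 21 an IDR summit and 86 neither, and the interval of the first share includes 8.04%. The 15 genes have 14 peaks, since Ugt303A1 and Ugt304A1 share 1. The strongest was at Cyp6a2, a cytochrome P450 of insecticide metabolism, with pooled rank 3781, found in replicate 1 only (3444). Cyp12a5, a mitochondrial cytochrome P450, had pooled rank 3782 and ranks of 8788 in replicate 1 and 4219 in replicate 3, and its neighbour Cyp12a4 had pooled rank 5059 and was found in replicate 3 only, at rank 1602. The glucuronosyltransferase gene Ugt303B3 had pooled rank 3797 and ranks of 5027 and 3473 in replicates 1 and 3, and Ugt303B2 beside it had pooled rank 5230 and was found in replicate 1 only. Of the 15 genes, 7 encode UDP-glycosyltransferases and 3 cytochromes P450. How many of the 120 genes belong to each family is not given here, so these counts show no preference for a family. The antioxidant regulators cnc (4176) and Keap1 (4341) had a member and an IDR summit elsewhere. The member at cnc and the one at the glutathione transferase gene GstE9 (4043) matched no summit of either replicate. Several of these genes lie in clusters of close paralogs, and how reads that fit more than 1 copy were handled is not given in the sources used here.

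Nutrient signalling genes had a member in 5 of 32 cases (15.6%, 5.28 to 32.8) and an IDR summit in 12, and the interval includes 8.04%. With the rule applied to replicate 1 alone no gene of this list had a member (5.67% of all genes), and with replicate 3 alone the share was 18.8% (7.23% of all genes). foxo, the transcription factor inhibited by insulin signalling, had a member at chr3R:14056521-14056936 with pooled rank 3643, rank 2136 (signal 57.2) in replicate 1 and none in replicate 3. The kinase genes Lk6 (pooled rank 4635) and S6k (5700) and the growth regulator Myc (6606) also had a member and no IDR summit. Lk6 was found in replicate 3 only (5252), S6k had ranks of 24538 in replicate 1 and 2143 in replicate 3, and Myc was found in replicate 3 only (2751). Pdk1 (5360), which had ranks of 7955 and 7542, has an IDR summit elsewhere. Of 19 circadian genes, 3 had a member (15.8%) and 8 an IDR summit, and with the rule applied to replicate 1 alone none had a member. tim, the partner of the clock protein Period, had pooled rank 3991 and was found in replicate 3 only (2093), and it has an IDR summit elsewhere. tws, a phosphatase subunit, had pooled rank 4091 (3225 in replicate 1 and 5733 in replicate 3), and cwo, a clock repressor, 4944 (7885 and 3230). None of the 27 autophagy genes had a member, which allows a share of up to 11.1%, while 10 had an IDR summit. With the rule applied to a single replicate autophagy genes did have members, 14.8% of them with replicate 3 alone and 3.7% with replicate 1 alone.

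Cytosolic ribosomal protein genes were many among the IDR peaks, while the interval of their share with a member includes that of all genes. The other housekeeping lists had less of a gap in percentage points between the 2 shares, though most also had more IDR summits than members. Of 86 cytosolic ribosomal protein genes, 4 (4.65%, 1.28 to 11.5, against 8.04% of all genes) had a member and 61 (70.9%) an IDR summit. Those with a member included RpS5b (pooled rank 3830, with 3850 in replicate 1 and 6143 in replicate 3), RpL5 (3845, replicate 1 only) and RpL17 (5385, with an IDR summit too). By the rule, a member summit cannot lie within 500 bp of an IDR summit, which leaves less room for a member at a promoter with an IDR summit. Among the genes with no IDR summit, 3 of 25 cytosolic ribosomal protein genes (12%, 2.55 to 31.2) had a member, against 951 of 11419 protein-coding genes (8.33%), and the interval includes that background. Mitochondrial ribosomal protein genes had a member in 8 of 76 cases (10.5%) and an IDR summit in 21, led by mRpL50 (3741), mRpS18A (3841) and mRpL44 (4001), of which mRpS18A and mRpL44 share their peak with a nearer gene. Aminoacyl-tRNA synthetase genes had a member in 4 of 31 cases (12.9%), at GlyRS (3727), TyrRS (3979), AlaRS (5074) and AlaRS-m (5294), and an IDR summit in 8. Oxidative phosphorylation genes had a member in 6 of 88 cases (6.82%), led by ATPsynC (5085), SdhD (5375) and SdhB (5630), and an IDR summit in 18 (20.5%). Translation factors had 2 of 55 (3.64%), at pAbp (4197) and eIF2Bbeta (5587), and an IDR summit in 17 (30.9%). Proteasome subunits had 2 of 48 (4.17%), at Prosalpha3 (5714) and Rpn7 (5753), and an IDR summit in 4 (8.33%). Vacuolar ATPase subunits had 1 of 33 (3.03%), at VhaM9.7-a (5037), and an IDR summit in 12 (36.4%). Heat shock and chaperone genes had 1 of 31 (3.23%), at Hsc70-1 (3856), and an IDR summit in 9 (29.0%).

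Among lists of single tissues and of developmental control, shares lay on both sides of the 8.04% of all genes. Of 46 germline and oogenesis genes, 2 had a member, egl (3715), needed for RNA transport into the oocyte, and squ (6015), whose peak lies nearer to the start of grp. DNA replication licensing had 1 of 23, Cdc45 (5986), whose peak lies nearer to Rpp21, and insulator and promoter factors 1 of 20, l(3)neo38 (4243). Of 41 markers of gut, fat body, muscle and neurons, 4 had a member (9.76%) and 4 an IDR summit. The members were at Mal-A1, a gut maltase (3849), the muscle genes Mhc (5025) and wupA (5752), and Syt1, a synaptic vesicle protein (6084). Lists with no IDR summit still had a few members: 1 of 46 testis genes (bol, 4616), 1 of 8 Hox genes (12.5%; Dfd, 6965) and 6 of 180 olfactory, gustatory and ionotropic receptor genes (3.33%, 1.23 to 7.11). The receptor genes were led by Gr77a (5228), Or82a (5558) and Gr28b (5628), and Gr58a and Gr58b share 1 peak. Taste and smell receptors are known to be silent outside small groups of neurons, and the interval of their share lies below 8.04%, though the share was 5% against 5.67% of all genes with the rule applied to replicate 1 alone, whereas the intervals of the testis and Hox genes include it. Across the 22 lists, 9 had a share above that background, and the lists were chosen with earlier results of these data known, so their counts are a description.

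**Figure D5:**
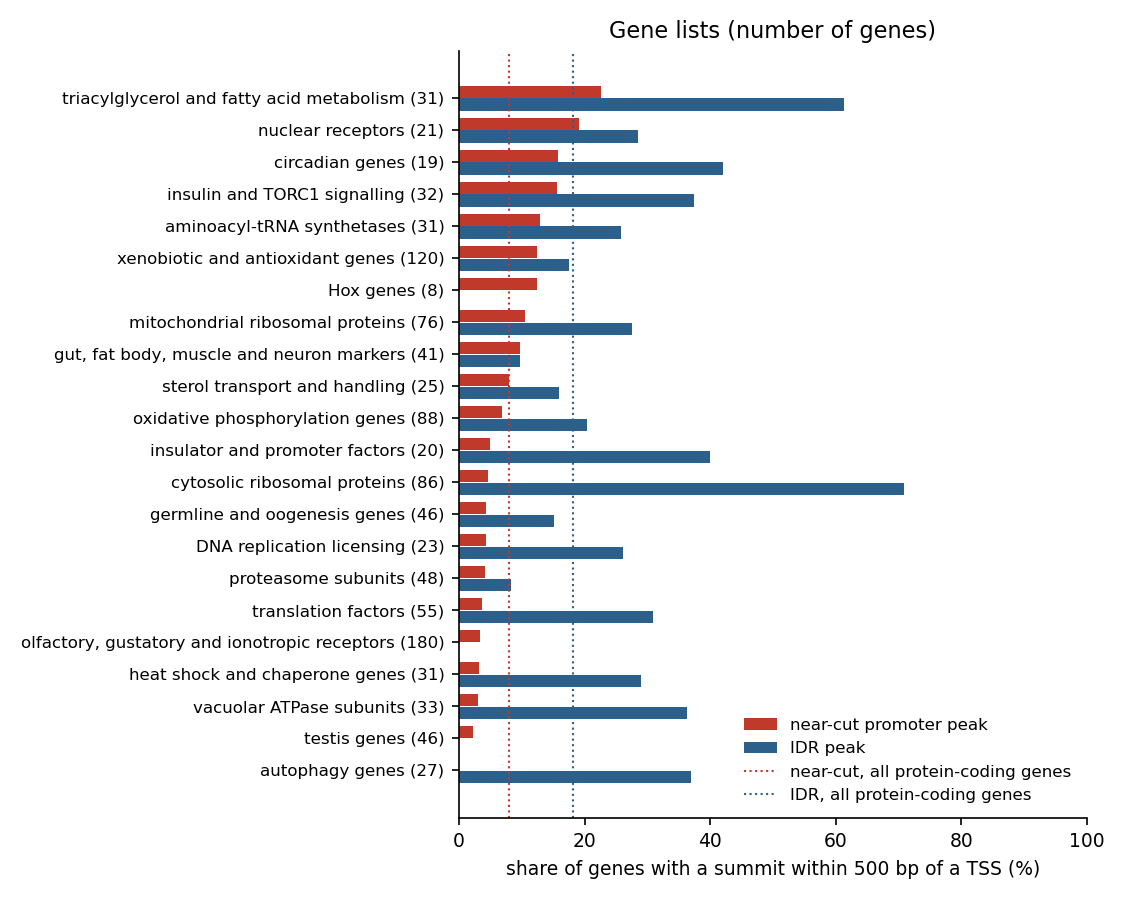
Share of the genes of each of 22 lists with a near-cut promoter peak (upper bar) and with an IDR peak (lower bar) within 500 bp of a TSS; the number of genes stands beside the list's name, and dotted lines mark the shares over all protein-coding genes, 8.04% and 18.1%. The near-cut share is 22.6% for triacylglycerol and fatty acid metabolism, 4.65% for cytosolic ribosomal proteins and 0 for autophagy genes.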

How the data were processed

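ChIP-seq peak lists of 2 biological replicates were used as the authors deposited them, with no reads reprocessed. Per the column order of the narrowPeak format, each deposited list gives a signal value and the −log10 of a q-value per peak, both from the authors' peak caller. Per the deposited text lists, each replicate and the pool of both were called against 1 shared control file, and the IDR list was derived from them. The peak caller, the aligner and the cut-off of the IDR step are among the details not given in the sources used here. Read depth is unknown, and the control libraries were not analysed here. A cut by signal within 1 list needs no common scale between libraries, and replicates were compared by rank.

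Peaks were ranked by signal, summits were matched within 100 bp to the best-ranked summit of a replicate's list, and TSSs were the 19253 distinct starts of protein-coding transcripts in Ensembl release 115 (BDGP6, dm6 coordinates). Motifs were searched within 100 bp of each summit in the RefSeq copy of Release 6, and chromosome arms other than the 6 main ones were left out of gene counts. Comparison sets were IDR promoter peaks, their weaker part (after rank 2000), promoter peaks of the 3393 ranks after rank 7000 under the same rule, and near-cut peaks away from promoters. Shares have exact Clopper-Pearson 95% intervals, a share of 0 has the limit that 3 counts allow for gene lists and the exact upper bound for chromosome 4, and no test was run. Members, gene lists (297 symbols, 5 matched by a synonym) and motifs were chosen with earlier results of these data known. Named genes are those nearest to the 10 strongest members, the 6 with the best worse rank, the 4 most unequal in each direction and the 2 at each end, up to 3 per list, and every sterol, triacylglycerol or nuclear receptor gene with a member; further genes of the lists were named after their values were seen. The values of 1 list gene are not reported here. Alternatives varied windows, rank range, TSS set, build and replicate. Matching and motif search were tested on simulated data. The scripts ran in Python 3.11.15 with SciPy 1.17.1 (intervals), pandas 2.3.3, matplotlib 3.10.9 and numpy 2.4.6.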

Additional observations from a re-analysis of the deposited data

How the results depend on the processing

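Leaving aside the shares of single gene lists, 69 of 98 recomputed values stayed within their interval or within 1.5 times the reported count. The other 29 moved. Of 198 recomputed list shares, 22 lists under 9 settings, 169 stayed within their interval and 29 moved: 8 with replicate 1 alone, 3 with replicate 3 alone, 9 in the lower and 5 in the upper part of the rank range, and 2 each with a TSS window of 250 bp and an IDR distance of 1000 bp. Among them, nutrient signalling (15.6%) and circadian genes (15.8%) were at 0 and xenobiotic and antioxidant genes (12.5%) at 4.17% with replicate 1 alone, while nuclear receptors (19.0%) were at 4.76% and autophagy genes (0) at 14.8% with replicate 3 alone. All genes were at 5.67% and 7.23% with replicates 1 and 3 alone, against 8.04%. They were at 6.14% and 10.5% with TSS windows of 250 and 1000 bp, and at 7.30% with an IDR distance of 1000 bp. In the upper and lower parts of the rank range they were at 4.93% and 3.46%, so each list share is to be read against that of its own setting. The promoter share of the near-cut range, 36.6%, was 27.8% with a TSS window of 250 bp, 46.2% with 1000 bp and 39.5% with the TSSs of all annotated genes. It was 43.6% in the upper and 29.7% in the lower part of the rank range, cut at its middle. Applying the rule to the list of 1 replicate alone gave 29.9% to 42.6%. The upper and lower parts of the range held 631 and 439 members at 688 and 482 genes, of which 55.5% and 44.9% were found in both replicates and 18.4% and 1.59% had both ranks within 7000. The matching distance moved the share found in both, 51.1%, to 33.6% at 50 bp and 71.8% at 250 bp, and the share with both ranks within 7000, 11.5%, to 6.73% and 18.0%. In windows of 50 bp to each side the DRE, M1BP motif, CTCF motif and nuclear receptor core were found in 2.34%, 1.78%, 1.21% and 1.68% of members, and over the whole peak in 5.89%, 5.51%, 5.70% and 7.2%, since a longer window holds more letters. The CTCF share was 1.92% to 4.24% with 1 replicate alone. The rule gave 731 to 939 members with 1 replicate alone, against 1070. The number of the 22 gene lists with a share above that of all genes, 9, was 8 to 13. On dm3, 3187 peaks below its IDR list lay over 500 bp from an IDR summit, against 3109 on dm6. No paired analysis was possible because both samples belong to 1 group. Depth is unknown, so no share can be read against it, and 2 replicates give no spread between animals.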
